A study of Mus musculus with 21 samples.

Results

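The genes described here are the nuclear genes whose names begin with Mrpl or Mrps and a number, the naming series of the mitochondrial ribosomal proteins. The rule found 83 of the 21161 gene names in the table of cell states and 84 of the 55291 in the table of lactate doses. Of these, 78 had no pseudogene name and stood in both tables. The others were Mrpl23-ps1, Mrpl27-ps, Mrpl48-ps, Mrps36-ps1, Mrps36-ps2 and, in the lactate table alone, Mrps36-ps3. In both tables, 82 members reached 1 FPKM in at least 3 libraries and were tested. Mrps36-ps2 did not, and Mrps36-ps3 was listed at 0.

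Mitochondria keep a small genome of their own and translate its messages, all for subunits of the respiratory chain and ATP synthase, on ribosomes built inside the organelle. The RNA of these ribosomes comes from the mitochondrial genome, while every protein subunit is made in the cytosol from a nuclear gene and imported. Many subunits descend from the bacterial ancestor of the organelle and others were added during its evolution. By these classes the 78 genes comprised 30 large-subunit proteins with a bacterial counterpart, 21 large-subunit proteins particular to mitochondria, 16 and 10 such proteins of the small subunit, and Mrps36. The large-subunit class includes Mrps18a and Mrps30, whose proteins sit there in spite of their names. Mrps36 is known today as a subunit of the 2-oxoglutarate dehydrogenase complex.

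RNA-seq was made from mouse cells labelled OG2, a background known for a green fluorescent reporter driven by Pou5f1 regulatory sequence. The table of cell states held epiblast stem cells (EpiSCs), 2-cell-like cells (2CLCs), embryonic fibroblasts (MEFs) and embryonic stem cells (ESCs), all labelled WT. The lactate table held ESCs given sodium lactate at 0, 60 or 80 mM. No group was given another sodium salt, so lactate cannot be told apart from the added sodium and osmolarity. Each of the 7 groups had 3 libraries. The labels state neither how the 2CLCs were obtained, nor how long lactate was given, nor the age or sex of the animals behind the cells. They do not say whether replicates were separate cultures, so the p-values measure the spread between these libraries, which may be technical.

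The labelled cell states were checked against marker genes. Summed 2-cell markers reached 11230 to 12470 FPKM in 2CLCs and 4.34 to 4.80 in ESCs, naive markers 1240 to 1250 in ESCs and at most 3.09 in EpiSCs, and fibroblast markers 960.2 to 972.1 in MEFs and at most 12.9 elsewhere. In 2CLCs naive markers still summed to 769.9 to 871.1 FPKM. Pluripotency markers summed to 800.8 to 829.8 in 2CLCs and 1309 to 1328 in ESCs. Blood or macrophage markers summed to 22.1 to 23.9 FPKM in MEFs, 4.43 to 25 in EpiSCs and 5.84 to 6.05 in ESCs. The part of other cell types in these groups was not tested. EpiSC replicate 1 stood apart from the other 2 EpiSC libraries in several members and is given separately below. FPKM summed over all names ranged from 375926 to 519915 in the table of cell states, with the 2CLC libraries at the top, and from 396792 to 409131 in the lactate table. Read depth is unknown, since FPKM carries no counts. In bulk samples, fewer cells of a type and less RNA per cell cannot be told apart.

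The promoters of a few members are shown first, of some that moved far in 2CLCs or EpiSCs and of the 3 relatives Mrps18a, Mrps18b and Mrps18c. Any link between their letters and the members' differences was not tested. In all, 3 short motifs linked with mitochondrial genes were searched on both strands of the 250 bases before and 50 after each RefSeq start (GRCm38.p6). They were GCGCATGC for NRF1, CCGGAAG for ETS factors such as GABP, and AAGATGGC for YY1. The sequences run 5′ to 3′ along the gene, lie wholly before the RefSeq start, and have the matched letters in capitals. GENCODE M21, used below for positions, starts Mrpl36 at 73328513, Mrps16 at 20393634 and Mrpl32 at 14613165. By those starts the Mrpl36 and Mrps16 stretches and the NRF1 letters of Mrpl32 lie inside the gene. Mrpl32 is on the minus strand at chr13:14613040-14613287 and Mrps16 on the minus strand at chr14:20393546-20393576. Mrps18a is on the plus strand at chr17:46110966-46110996, Mrps18b on the minus strand at chr17:35916644-35916675, Mrps18c on the plus strand at chr5:100798591-100798621, and Mrpl36 on the plus strand at chr13:73330967-73330998.
Mrpl32: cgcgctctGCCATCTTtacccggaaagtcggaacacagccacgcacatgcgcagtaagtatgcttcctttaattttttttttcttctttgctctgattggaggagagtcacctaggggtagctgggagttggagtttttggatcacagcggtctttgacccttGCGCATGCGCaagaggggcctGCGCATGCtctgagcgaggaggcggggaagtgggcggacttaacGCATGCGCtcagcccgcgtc
Mrps16: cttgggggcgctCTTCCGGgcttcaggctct
Mrps18a: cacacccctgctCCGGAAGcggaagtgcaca
Mrps18b: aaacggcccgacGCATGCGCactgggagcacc
Mrps18c: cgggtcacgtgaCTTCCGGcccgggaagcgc
Mrpl36: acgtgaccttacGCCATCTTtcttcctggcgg

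The Mrpl32 window holds the NRF1 letters in 3 places, of which the most upstream matches on both strands because the motif overlaps its own reverse complement, and the YY1 letters farther upstream. Before the RefSeq start, Mrpl36 holds the YY1 letters, Mrps16, Mrps18a and Mrps18c the ETS letters, and Mrps18b the NRF1 letters. Another RefSeq window of Mrps16, at chr14:20393585-20393884, holds none of the 3 motifs before its start. Mrps6, Mrps31 and Mrpl12, described below, hold none of these letters in the 250 bases before the start.

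Promoters were listed for 69 of the 84 members. Of these, 38 (55.1%) held at least 1 of the motifs, against 14.9% of all 27025 genes with a window of the same length. The ETS letters stood in 26 members (37.7%, against 9.93% of all genes), the YY1 letters in 12 (17.4%, against 3.19%) and the NRF1 letters in 8 (11.6%, against 3.05%). Within the 250 bases before the start the share with any motif was 39.1% of members and 11.5% of all genes. A match is a description of the letters and not a site of binding. The first transcribed bases after the RefSeq start stood in a GENCODE transcript of the same gene for 59 of the 69.

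Members often shared a promoter region with a gene running the other way. Counting protein-coding pairs on opposite strands whose starts lie within 500 bases and overlap by at most 100, 18 of the 78 genes (23.1%) stood head to head with a neighbour, against 6.61% of all 21951 protein-coding genes (GENCODE M21, GRCm38). Mrpl32 starts 75 bases from the proteasome subunit gene Psma2. Mrps12 starts 172 bases from Sars2, which encodes the mitochondrial seryl-tRNA synthetase, and Mrps18b 45 bases from Ppp1r10, a nuclear regulator of a protein phosphatase. By these starts the Mrps18b stretch shown above lies downstream of the Ppp1r10 start, and the YY1 letters of Mrpl32 downstream of the Psma2 start. In the same annotation 33 members share exonic bases with another gene, 8 of them on the same strand. These 8 are Mrps6 (with Slc5a3 and Gm49711), Mrps34 (with Nme3), Mrpl53 (with Gm42688), Mrps24 (with Urgcp), Mrpl3, Mrpl33, Mrpl51 and Mrps18c. Their values are uncertain to the extent that reads of the pairs were divided. Whether counting used the strand is not given. If it did not, the same holds for overlaps on opposite strands. The bases shared there include 4590 of Mrps25 with Nr2c2, 1962 of Mrpl19 with Gcfc2 and 708 of Mrpl48 with Rab6a.

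Together the members made up the largest share of the summed FPKM in ESCs and the smallest in 2CLCs. The order of 2CLCs and MEFs depends on how libraries are scaled, as given below. They took 0.778 ± 0.0027% of all FPKM in ESCs (mean ± SD, n = 3 here and below), 0.687 ± 0.0105% in EpiSCs, 0.489 ± 0.0071% in MEFs and 0.314 ± 0.0079% in 2CLCs. No library of one state overlapped those of another. In ESCs with lactate the share was 0.681 ± 0.0118% at 0 mM, 0.626 ± 0.0081% at 60 mM and 0.626 ± 0.0059% at 80 mM. Both doses lay below every untreated library and overlapped each other.

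**Figure D1:**
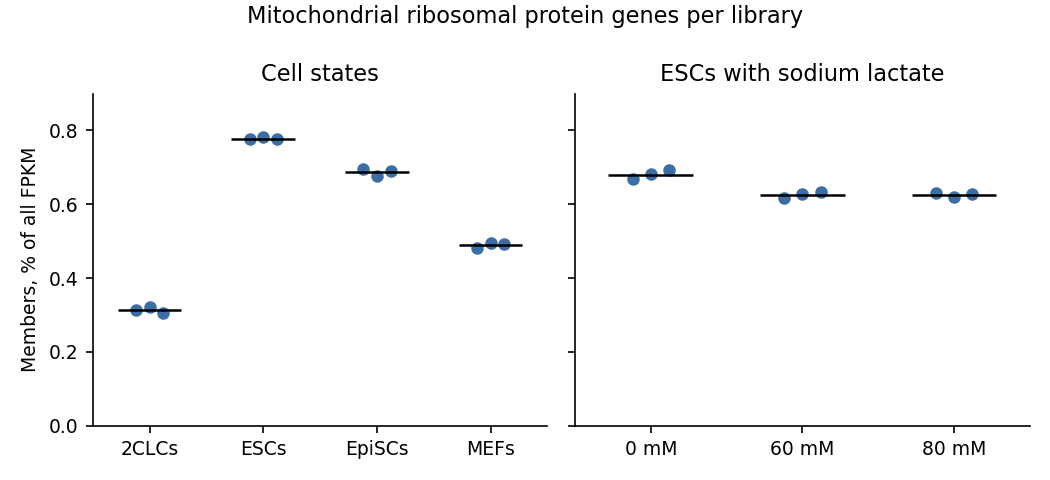
FPKM summed over the members as a percent of all FPKM in each library (y axis), by group (x axis). Points are libraries and lines are means of 3. ESC libraries sit between 0.776 and 0.781%, 2CLC libraries between 0.306 and 0.322%, and the 60 and 80 mM libraries below all libraries at 0 mM.

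Gene by gene, 53 of the 78 had their highest mean level in ESCs, 20 in EpiSCs, 4 in MEFs and 1, Mrpl32, in 2CLCs. On the deposited scale the lowest mean stood in 2CLCs for 43 and in MEFs for 35. The median member was at 35.5 FPKM in ESCs, 32.0 in EpiSCs, 19.4 in MEFs and 18.1 in 2CLCs. Mrpl42, a large-subunit protein particular to mitochondria, had the highest level in ESCs (139, 138 and 141 FPKM), EpiSCs (83.9, 103 and 97.4) and 2CLCs (67.7, 69.0 and 60.5). In MEFs it gave 44.8, 46.6 and 48.2 FPKM and was passed by Mrps6.

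**Figure D2:**
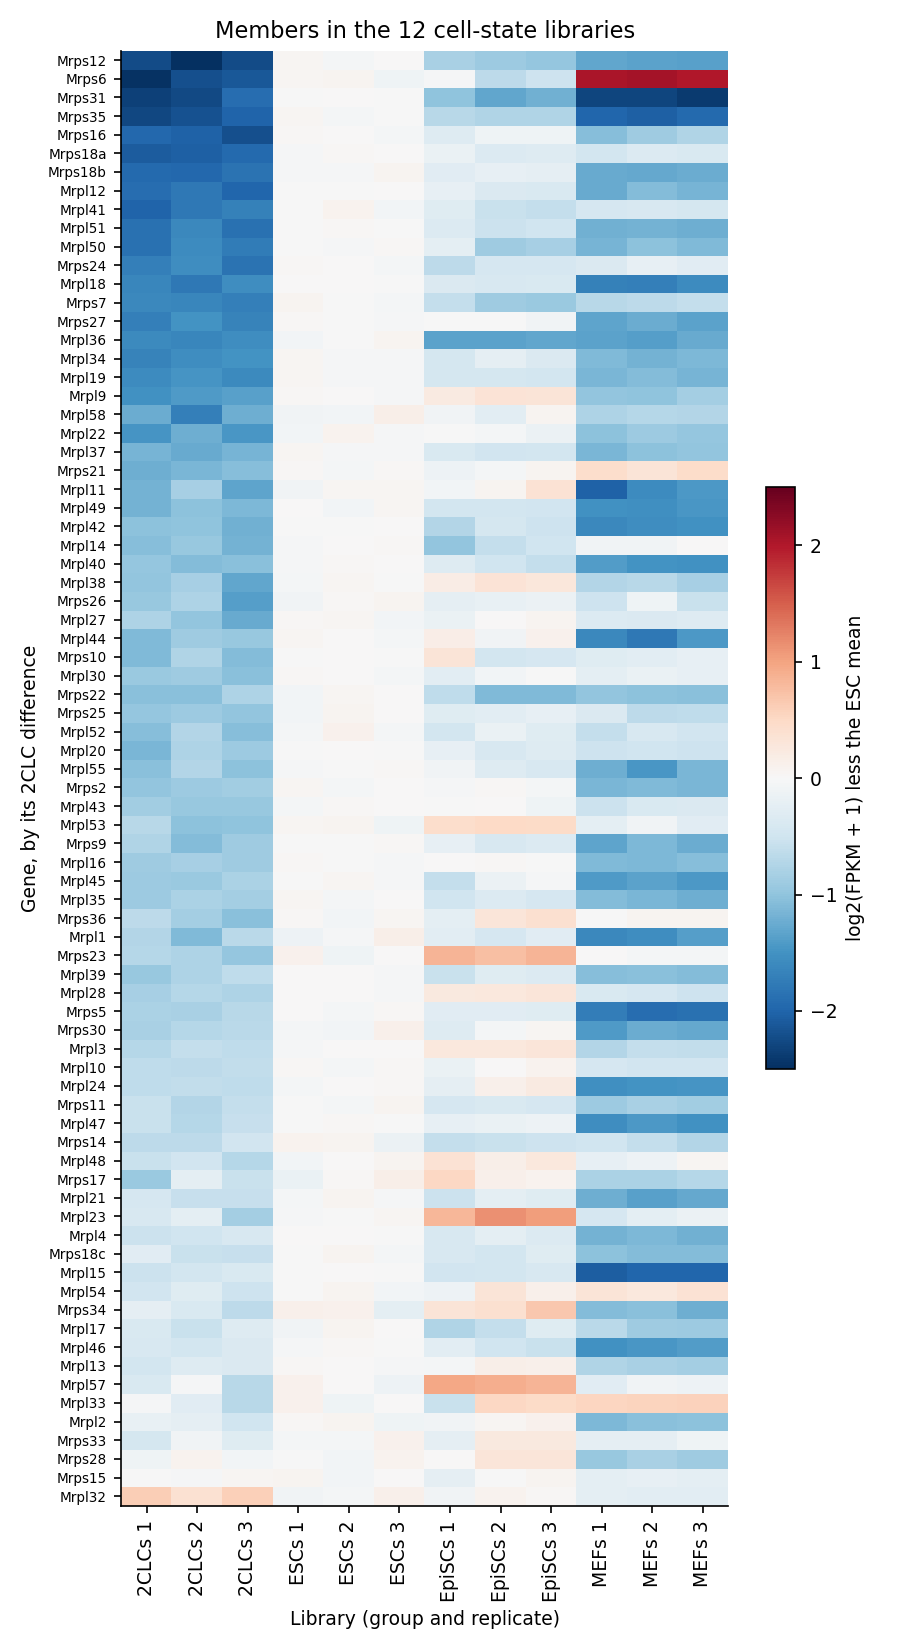
The 78 members without a pseudogene name (rows, ordered by their 2CLC difference) in the 12 cell-state libraries (columns). Colour is log2(FPKM + 1) less the ESC mean of the gene, red above and blue below it, and the strongest colour covers all values beyond the ends of the bar. The 2CLC and MEF columns are mostly blue, Mrps6 is red in the 3 MEF libraries, and Mrpl32 is the red row in the 2CLC columns.

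In 2CLCs, cells of an ESC culture that switch on genes of the 2-cell embryo, most members were lower than in ESCs. Of 82 tested, 75 fell and 2 rose, where 56.4% of all tested genes fell and 20.1% rose. The median member differed by -0.91 on the log2(FPKM + 1) scale and the median of all genes by -0.46. Every member of the large-subunit class particular to mitochondria fell (21 of 21), as did 28 of the 30 large-subunit proteins with a bacterial counterpart, 14 of 16 and 9 of 10 in the corresponding small-subunit classes, and Mrps36. The members' medians by class lay close together, from -0.84 for the large-subunit proteins with a bacterial counterpart to -0.995 for the small-subunit proteins particular to mitochondria.

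The size of this fall depends on how libraries are scaled, because the FPKM sums and the median gene differed between the states. Scaling each library by the median of ratios moved the median of all genes from -0.46 to 0.018 and that of the members from -0.91 to -0.18. On that scale 35 members fell and 17 rose (32.4% and 36.8% of all genes). With quantile normalization 61 fell and 3 rose (50.1% and 23.4% of all genes), and the members' median was -0.48. In MEFs against ESCs that median was -0.70 with the median of ratios and -0.85 with quantile normalization, lower than in 2CLCs. With library sums made equal the order was the other way, at -0.78 in MEFs and -1.25 in 2CLCs. Members are therefore also described against the median of the family in the same library, a measure that no scaling of whole libraries moves except through the pseudocount.

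Mrps12, whose protein lies at the decoding centre of the small subunit, had the largest fall. It gave 61.8, 57.3 and 59.6 FPKM in ESCs and 11.8, 8.87 and 11.8 in 2CLCs. The 2 groups lay far apart, with a difference of -2.36 ± 0.09 (SE; limma, adjusted p = 1.04e-09) that was still -1.64 after median-of-ratios scaling. Its head-to-head neighbour Sars2 also fell, from 26.0 ± 0.979 to 15.4 ± 1.22 FPKM (-0.72, adjusted p = 1.42e-05).

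Mrps6, a small-subunit protein with a bacterial counterpart, gave 20.4, 20.7 and 18.1 FPKM in ESCs and 2.76, 3.51 and 3.74 in 2CLCs (-2.26, adjusted p = 5.18e-08). Mrps31, particular to mitochondria, gave 46.2, 46.7 and 45.8 against 8.33, 8.89 and 11.6 (-2.16, adjusted p = 7.68e-09). Mrps35, also particular to mitochondria, gave 17.2, 16.1 and 16.6 against 2.62, 2.87 and 3.38 (-2.16, adjusted p = 4.41e-10). In all 3 every 2CLC library lay under every ESC library. Mrps16, with a bacterial counterpart, fell from 28.1 ± 0.869 to 5.999 ± 0.586 FPKM (-2.06). Of the 5 largest falls, all belonged to the small subunit, and the sixth was Mrps18a.

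Mrpl32, a large-subunit protein known to be cut to its mature form by the m-AAA protease before assembly, was the member without a pseudogene name that rose. It gave 7.23, 7.51 and 8.57 FPKM in ESCs and 12.5, 10.4 and 12.3 in 2CLCs, with no overlap (0.54 ± 0.09, adjusted p = 0.000142). The rise was 1.24 after median-of-ratios scaling, 0.91 after quantile normalization and 0.26 with library sums made equal, past the threshold each time. Its neighbour Psma2 gave 58.4 ± 0.845 FPKM in ESCs and 55.4 ± 1.33 in 2CLCs (-0.07, adjusted p = 0.131). The other riser was Mrpl23-ps1, from 0.774 ± 0.465 to 1.38 ± 0.427 FPKM, whose libraries overlapped. That call was lost without 2CLC replicate 1 or 3 or ESC replicate 2 or 3, with a pseudocount of 0.1, with equal library sums and with only the 2 groups in the fit (limma, adjusted p from 0.0537 to 0.183), and the difference of 0.44 became 0.26 without ESC replicate 3.

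Mrps15, which binds ribosomal RNA early in small-subunit assembly of bacteria, gave 55.8, 50.9 and 53.7 FPKM in ESCs and 52.9, 52.2 and 55.1 in 2CLCs. Mrps28, also of the small subunit, gave 33.2, 31.8 and 35.6 against 30.8, 35.8 and 32.1. For both genes the libraries overlapped and the differences of -0.0014 and -0.03 missed the threshold. Against the family median both stood above it, by 1.01 (adjusted p = 3.34e-07) and 0.99 (adjusted p = 1.21e-06). Their direction turned with scaling, to 0.75 and 0.72 with the median of ratios and to -0.32 and -0.34 with equal library sums.

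The 3 Mrps18 genes descend from 1 bacterial protein and are built into the ribosome at different places. Mrps18c is the small-subunit form nearest the bacterial one, Mrps18b another small-subunit form and Mrps18a the large-subunit form. Mrps18b gave 94.5, 93.9 and 101 FPKM in ESCs and 24.4, 23.9 and 26.2 in 2CLCs (-1.91, adjusted p = 2.85e-11). Mrps18a gave 32.3, 33.9 and 33.2 against 7.06, 7.28 and 7.92 (-2.02, adjusted p = 1.59e-10). Mrps18c gave 43.9, 46.9 and 42.8 against 36.2, 29.8 and 29.7 (-0.47, adjusted p = 0.000165). All 3 fell without overlap on the deposited scale, Mrps18c by the least, and Mrps18c turned to 0.28 with median-of-ratios scaling.

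Against the family median the difference was 0.54 for Mrps18c (adjusted p = 0.00014), -0.90 for Mrps18b (adjusted p = 4.40e-08) and -1.01 for Mrps18a (adjusted p = 3.67e-08). The head-to-head neighbour of Mrps18b moved the other way, with Ppp1r10 at 25.2 ± 0.225 FPKM in ESCs and 74.7 ± 2.39 in 2CLCs (1.53, adjusted p = 1.52e-10). Over the 17 head-to-head pairs with a tested partner, 16 of the members fell and 1 rose, while 11 of the partners fell, 2 rose and 4 were not called. The share of partners that fell lies near the 56.4% of all tested genes.

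Among other members, Mrpl12, the stalk protein that recruits translation factors, fell from 100.1 ± 0.76 to 26.4 ± 1.89 FPKM (-1.88). Mrpl41 fell from 28.03 ± 1.54 to 7.17 ± 0.896 FPKM (-1.83). Mrpl58, a peptidyl-tRNA hydrolase that releases stalled chains, fell from 25.4 ± 2.52 to 9.18 ± 1.83 FPKM (-1.39). Mrps27, which belongs to the pentatricopeptide repeat proteins that bind RNA, fell by 1.63 and Mrps7 by 1.65. Mrpl44, a relative of ribonuclease III, fell by 0.98, Mrps2 by 0.92 and Mrps22 by 0.96, each within 0.1 of the family median. Mrpl3 fell by 0.64 and Mrps34 by 0.42 on the deposited scale and turned to 0.08 and 0.33 with the median of ratios. The fall of Mrps34 missed the threshold without 2CLC replicate 3 (adjusted p = 0.0591) or without ESC replicate 1 (adjusted p = 0.0534).

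Against the family median, 33 members stood higher in 2CLCs than in ESCs and 22 lower, where 61.2% and 16.0% of all tested genes did. Of the 22 members below the family, 20 had a listed promoter and 12 of those (60%) held 1 of the 3 motifs before the start. The same held for 6 of 24 (25%) of the members not apart from the family and 9 of 25 (36%) of those above it. These shares are given with no test. Of the factors that read these motifs, Nrf1 was at 28.4 ± 1.94 FPKM in ESCs and 26.4 ± 1.45 in 2CLCs (adjusted p = 0.191), Yy1 at 23.6 ± 0.362 and 17.5 ± 0.0897 (adjusted p = 0.0521), and Gabpa fell from 41.7 ± 2.03 to 16.7 ± 1.62 (-1.27, adjusted p = 1.47e-06).

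**Figure D3:**
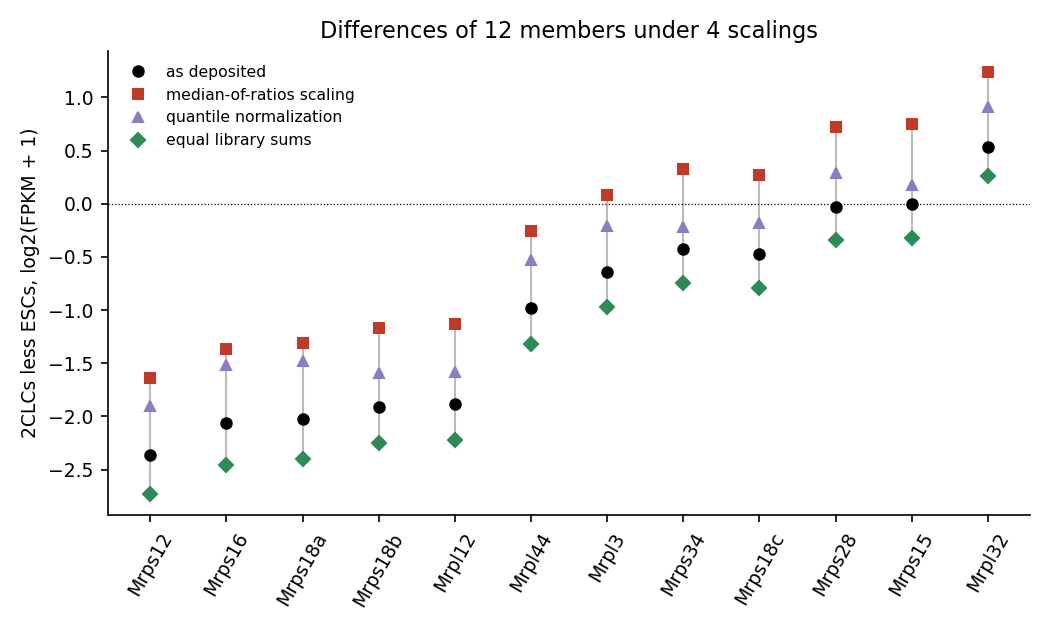
Difference between 2CLCs and ESCs in log2(FPKM + 1) (y axis) of 12 members (x axis) under 4 scalings of the libraries, marked by symbol. Mrpl32 lies above 0 in all 4 and the members from Mrps12 to Mrpl44 lie below 0 in all 4, while Mrpl3, Mrps34, Mrps18c, Mrps28 and Mrps15 lie on both sides.

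On the deposited scale most of the listed genes that serve these ribosomes fell in 2CLCs, where 56.4% of all tested genes fell, and the genes of the messages they translate rose. Of the genes for assembly and modification of the ribosomal RNA 24 of 27 fell, led by the RNA methyltransferase gene Trmt61b (5.13 ± 0.273 to 0.421 ± 0.156 FPKM). Of the genes for translation factors and membrane insertion 13 of 14 fell, among them the deformylase gene Pdf (14.7 ± 0.575 to 1.83 ± 0.126 FPKM). Of the mitochondrial aminoacyl-tRNA synthetases 18 of 20 fell, led by Hars2 (15.4 ± 0.704 to 2.55 ± 0.448 FPKM), and Lars2 rose from 36.6 ± 6.64 to 89.7 ± 11.1 FPKM (1.28, adjusted p = 1.77e-05). Of mitochondrial transcription and RNA processing 15 of 17 fell, and of import and chaperones 14 of 16.

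These counts depend on the scaling, as those of the members do. With the median of ratios, where 32.4% of all tested genes fell and 36.8% rose, the assembly genes had 13 falls and 6 rises and the translation factors 10 and 2. The aminoacyl-tRNA synthetases then had 9 falls and 3 rises, transcription and RNA 7 and 3, and import and chaperones 5 of each. The medians of these lists moved from -0.91, -1.10, -0.80, -0.97 and -0.82 to -0.21, -0.40, -0.14, -0.24 and -0.06, in the same order.

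All 5 tested ribosomal subunits named outside the series (Dap3, Ptcd3, Chchd1, Aurkaip1 and Gadd45gip1) fell on the deposited scale, with a median of -0.75. With the median of ratios 1 of them fell, 2 rose and the median was -0.01. Among regulators of mitochondrial genes 6 of 8 fell (5 fell and 1 rose with the median of ratios), Myc from 41.97 ± 1.77 to 1.61 ± 0.335 FPKM (-4.05, adjusted p = 1.71e-08). The 13 protein genes of the mitochondrial genome all rose, with a median of 0.93, and mt-Atp6 was the largest (1.18, adjusted p = 2.81e-09). Of the cytosolic ribosomal protein genes 60 of 87 rose, with a median of 0.37. Both of these medians turned with quantile normalization, to -0.21 for the mitochondrial genome and -0.26 for the cytosolic ribosome.

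EpiSCs, which stand for the epiblast after implantation, differed from ESCs by less and in both directions. Of 82 members 39 fell and 11 rose, where 26.5% of all tested genes fell and 33.2% rose. The median member differed by -0.20 and the median of all genes by 0.014. Without EpiSC replicate 1, 39 fell and 17 rose. The small-subunit proteins with a bacterial counterpart had 9 falls among 16, and the large subunit had 25 falls and 8 rises among 51.

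Mrpl36, the smallest protein of the large subunit in bacteria, had the largest fall, with 51.6, 53.3 and 56.8 FPKM in ESCs and 20.8, 20.8 and 21.3 in EpiSCs. Its libraries lay far apart (-1.32 ± 0.05, adjusted p = 3.99e-09), and its level in EpiSCs was near those in MEFs (20.9 ± 0.99) and 2CLCs (17.2 ± 0.46). The neighbour it overlaps head to head at its GENCODE start, the respiratory complex I gene Ndufs6, fell from 72.5 ± 4.43 to 54.7 ± 5.16 FPKM (-0.40, adjusted p = 0.00284). Mrps31 fell to 20.0 ± 2.16 FPKM (-1.17), Mrps22 to 17.99 ± 3.77 (-0.94), Mrps12 to 31.5 ± 1.74 (-0.90), Mrps7 to 20.7 ± 2.90 (-0.81) and Mrps35 to 9.57 ± 0.228 (-0.74).

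The largest rise was that of Mrpl23, a protein at the exit of the nascent chain tunnel. It gave 34.7, 35.4 and 36.7 FPKM in ESCs and 63.7, 80.3 and 74.9 in EpiSCs (1.01 ± 0.14, adjusted p = 8.94e-05). The groups did not overlap, and levels in 2CLCs (25.4 ± 5.45) and MEFs (29.4 ± 2.94) lay below those in ESCs. Mrpl57, a large-subunit protein particular to mitochondria, gave 15.1, 14.2 and 12.8 against 28.5, 27.3 and 26.2 FPKM (0.92, adjusted p = 0.000157). Mrps23, a small-subunit protein particular to mitochondria, gave 25.05, 21.7 and 23.4 against 42.8, 40.1 and 43.0 FPKM (0.82, adjusted p = 3.08e-06). Every EpiSC library of these genes lay above every ESC library. Smaller rises were those of Mrps34 (0.47), Mrpl53 (0.47), Mrpl9 (0.29) and Mrpl3 (0.28). Mrps34 shares 763 exonic bases with Nme3, which gave 8.65, 9.39 and 2.49 FPKM in ESCs and 6.74, 10.9 and 31.6 in EpiSCs. Mrpl53 shares 695 with Gm42688, at 2.12 ± 0.381 FPKM in ESCs and 1.67 ± 0.604 in EpiSCs. Neither of these same-strand partners was called. On the opposite strand Mrps34 also shares 1309 exonic bases with Mapk8ip3. That gene rose from 11.1 ± 0.709 FPKM in ESCs to 34.1 ± 11.4 in EpiSCs (1.47, limma, adjusted p = 6.12e-05). Whether counting used the strand is not given, and the part of these partners in the rises was not tested.

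In EpiSC replicate 1 several members parted from the other 2 libraries, and they are named here after their values were seen. Mrpl33 gave 20.6 FPKM in it against 44.2 and 43.4, Mrpl50 27.8 against 17.5 and 18.2, and Mrps6 19.2 against 12.2 and 13.5. The same library had 4.38 FPKM of Cd68, a gene of macrophages, against 23.7 and 24.9, while Ptprc and Csf1r were under 1 FPKM in all 3. The part of either in the EpiSC results was not tested.

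Against the family median 31 members were higher in EpiSCs than in ESCs and 18 lower (54.7% and 16.3% of all tested genes). The 18 became 10 without ESC replicate 1 or 2 and 12 without EpiSC replicate 2. Of the wider pathway, 14 of 27 assembly genes fell and 2 rose, and 11 of 17 genes of mitochondrial transcription and RNA fell and 1 rose. Of the 20 aminoacyl-tRNA synthetases 5 fell and 5 rose, or 8 and 2 with the median of ratios. Of all tested genes 26.5% fell and 33.2% rose, or 30.2% and 28.8% with the median of ratios. The shares of these synthetases on the deposited scale do not exceed those of all genes. The subunit gene Gadd45gip1, outside the naming series, fell to 14.5 ± 1.07 FPKM (-1.23, adjusted p = 3.25e-08).

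In MEFs, the differentiated cells of the series, 66 of the 82 members fell against ESCs and 3 rose, where 40.9% of all tested genes fell and 34.4% rose. The median member differed by -0.89 and the median of all genes by -0.07. With median-of-ratios scaling 59 fell and 4 rose (35.8% and 37.9% of all genes), and the median was -0.70. The large subunit had 44 falls among 51 and the small subunit 21 among 26. Members lower than ESCs in both MEFs and 2CLCs, comparisons that share the ESC libraries, numbered 63 of 82, and 37 were lower in all 3 other states.

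Mrps31 fell the most, to 8.62, 8.61 and 7.93 FPKM (-2.33 ± 0.11, adjusted p = 3.01e-09). Mrpl15, a large-subunit protein with a bacterial counterpart, gave 37.4, 37.9 and 37.2 FPKM in ESCs and 8.22, 8.76 and 8.70 in MEFs (-2.01, adjusted p = 2.72e-11). Mrps5 gave 31.7, 30.2 and 32.0 against 8.74, 7.63 and 7.83 (-1.84, adjusted p = 1.53e-10). None of these groups overlapped. Mrps35 fell to 3.43 ± 0.151 FPKM (-1.99), Mrpl11 to 12.4 ± 2.67 (-1.67) and Mrpl18 to 30.2 ± 1.5 (-1.66). Mrpl15 was at 27.2 ± 1.48 FPKM in 2CLCs, above the family there by 0.56 where it was below by 1.14 in MEFs, and Mrps18a was at 24.97 ± 1.12 FPKM in MEFs against 7.42 ± 0.447 in 2CLCs. The differences between MEFs and 2CLCs were not tested.

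Mrps6 had the largest rise. It gave 83.6, 86.7 and 81.5 FPKM in MEFs against 18.1 to 20.7 in ESCs (2.04 ± 0.14, adjusted p = 1.10e-07), and 2.90 against the family median (adjusted p = 2.30e-09). It was the most abundant member in MEFs. The gene lies at chr16:92058270-92112227 on the plus strand with 5 merged exons, and 159 bases of these are shared on the same strand with Slc5a3, the gene of a myo-inositol transporter, and 305 with Gm49711. Slc5a3 gave 0.933 ± 0.027 FPKM in ESCs, 0.283 ± 0.0208 in 2CLCs, 2.64 ± 0.944 in EpiSCs and 29.6 ± 0.867 in MEFs (3.98 in MEFs, adjusted p = 7.65e-10). How reads were divided between the pair in counting is not stated in the labels, and the part of Slc5a3 in the Mrps6 values was not tested.

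The other members that rose in MEFs were Mrps21, a small-subunit protein with a bacterial counterpart, with 50.3, 47.8 and 50.2 FPKM in ESCs and 66.9, 62.3 and 68.8 in MEFs (0.41, adjusted p = 0.000131), and Mrpl54, from 37.5 ± 1.85 to 47.0 ± 1.76 FPKM (0.32, adjusted p = 0.0132). Mrps21 did not overlap between the groups. Mrpl33 gave 32.9, 28.5 and 30.8 FPKM in ESCs and 44.9, 45.7 and 46.2 in MEFs, also without overlap, yet its difference of 0.56 had an adjusted p of 0.0656 in the fit that shares its spread over the groups, EpiSCs included. Against the family median 32 members stood higher in MEFs and 32 lower (66.9% and 17.0% of all tested genes).

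The wider pathway was lower in MEFs too, where 40.9% of all tested genes fell and 34.4% rose. Falls were counted for 23 of 27 assembly genes, 16 of 20 aminoacyl-tRNA synthetases, 14 of 17 genes of transcription and RNA, 9 of 14 translation factors, and all 5 subunits outside the series. Sars2, the neighbour of Mrps12, fell from 26.0 ± 0.979 to 4.76 ± 0.421 FPKM (-2.23, adjusted p = 6.68e-10). Tfam, which packages mitochondrial DNA and starts its transcription, fell from 24.7 ± 0.994 to 5.84 ± 0.371 FPKM (-1.91) and is named after its value was seen. The cytosolic ribosomal protein genes fell in 80 of 87 cases, and of the 13 protein genes on mitochondrial DNA 4 rose and 3 fell, or 8 and 0 with the median of ratios.

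**Figure D4:**
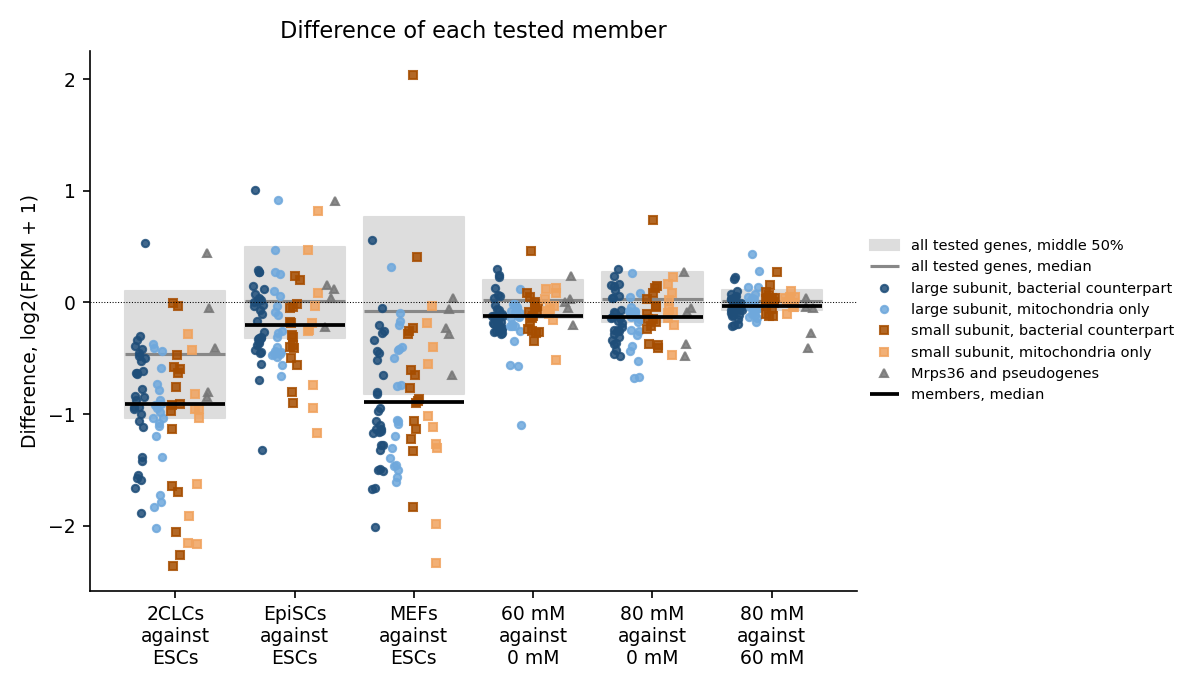
Difference in log2(FPKM + 1) (y axis) of each of the 82 tested members in the 6 comparisons (x axis), coloured by class, with black lines at the members' medians. Grey bands hold the middle 50% of all tested genes and grey lines their medians. The members' medians lie at -0.91, -0.20, -0.89, -0.12, -0.13 and -0.03 from left to right, below the grey line each time.

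In ESCs given lactate, changes of the members were small and mostly downward. At 60 mM 31 of 82 fell and 5 rose, where 18.6% of all tested genes fell and 23.5% rose, and the medians were -0.12 for members and 0.025 for all genes. At 80 mM 39 fell and 4 rose, where 23.1% fell and 30.0% rose, and the medians were -0.13 and 0.034. Both comparisons share the untreated libraries. In them 26 members fell at both doses and 2, Mrps6 and Mrpl28, rose at both. Markers of the 2-cell state summed to 27.97 to 28.39 FPKM at 0 mM, 58.1 to 62.3 at 60 mM and 92.6 to 96.7 at 80 mM. Several other marker sums were also higher with lactate. In the order 0, 60 and 80 mM, primed markers summed to 55.8 to 61.2, 83.7 to 92.1 and 92.5 to 99.4 FPKM, and naive markers to 1429 to 1494, 1606 to 1670 and 1682 to 1737. Fibroblast markers summed to 0.953 to 1.12, 3.68 to 4.47 and 5.33 to 5.71 FPKM, and trophectoderm markers to 1.57 to 1.78, 3.68 to 4.09 and 5.18 to 5.35. A mean of 1 FPKM was reached by 0, 1 and 2 of 7 fibroblast genes, 1 of 3 trophectoderm genes at each dose, and 4, 4 and 3 of 5 primed genes. Blood or macrophage markers were lower with lactate, at 9.61 to 11, 7.99 to 8.69 and 7.33 to 8.87 FPKM. Primitive endoderm sums at both doses overlapped those at 0 mM. The part of these cell types in the members' values was not tested.

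Mrps6 had the largest rise at both doses. It gave 10.7, 12.4 and 12.4 FPKM at 0 mM, 17.4, 17.6 and 15.1 at 60 mM, and 20.2, 21.1 and 19.9 at 80 mM. The 3 doses did not overlap, with differences from 0 mM of 0.46 ± 0.07 (adjusted p = 0.000628) and 0.74 ± 0.07 (adjusted p = 1.72e-05). Slc5a3, which shares exonic bases with it, gave 0.505, 0.528 and 0.331 FPKM at 0 mM, 0.682, 0.629 and 0.685 at 60 mM, and 1.02, 0.975 and 0.907 at 80 mM. It did not reach 1 FPKM in 3 libraries and was not tested.

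Mrpl28, a large-subunit protein with a bacterial counterpart, gave 38.3, 36.8 and 43.2 FPKM at 0 mM, 47.6, 46.8 and 45.9 at 60 mM and 49.8, 47.0 and 49.2 at 80 mM. Treated libraries lay above the untreated ones (0.24, adjusted p = 0.00506, and 0.30, adjusted p = 0.00101) and the doses overlapped each other. The other members that rose did so at 1 dose, by 0.12 to 0.30 at 60 mM (Mrpl1, Mrpl17 and Mrpl39) and by 0.17 to 0.24 at 80 mM (Mrpl16 and Mrps26), and each lost its call when some single library was left out.

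Mrpl41, a large-subunit protein particular to mitochondria, fell the most at 80 mM. It gave 36.3, 34.5 and 32.5 FPKM at 0 mM, 21.3, 22.3 and 25.4 at 60 mM and 20.95, 22.4 and 20.3 at 80 mM (-0.56, adjusted p = 0.000135, and -0.67, adjusted p = 2.21e-05). Mrps18b gave 67.0, 74.6 and 73.4 FPKM, then 49.5, 47.6 and 52.5, then 51.0, 50.7 and 52.6 (-0.51, adjusted p = 2.95e-05, and -0.47, adjusted p = 2.53e-05). In both genes every treated library lay below every untreated one and the doses overlapped. The relatives of Mrps18b were not called in the main fit. Mrps18a was at 23.5 ± 1.94, 22.2 ± 2.60 and 24.4 ± 1.83 FPKM, and Mrps18c at 50.1 ± 5.01, 53.0 ± 0.247 and 55.5 ± 2.28. Mrps18c was called higher at 80 mM with quantile normalization, equal library sums or the replicate block (limma, adjusted p = 0.0389, 0.0451 and 0.037). Without 0 mM replicate 3 it was called higher at 60 mM (0.16, adjusted p = 0.0196) and at 80 mM (0.22, adjusted p = 0.00278). Ppp1r10, head to head with Mrps18b, rose from 44.9 ± 1.42 to 57.6 ± 0.862 and 60.6 ± 1.23 FPKM (0.35 and 0.42), opposite in sign to Mrps18b as in 2CLCs. Against ESCs, however, Ppp1r10 fell in EpiSCs (-0.55, limma, adjusted p = 2.24e-06) and in MEFs (-0.20, adjusted p = 0.00289).

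Mrpl50 gave 24.9, 24.8 and 23.0 FPKM at 0 mM, 19.9, 18.4 and 18.3 at 60 mM and 17.1, 16.1 and 16.4 at 80 mM (-0.35 and -0.52, adjusted p = 0.000435 and 1.63e-05). Mrpl33 gave 29.1, 30.0 and 30.6, then 24.8, 25.1 and 23.6, then 19.9, 22.1 and 21.3 FPKM. These 2 large-subunit genes were lower at each higher dose without overlap. Mrpl27, at the peptidyl transferase centre, fell to 29.3 ± 2.35 FPKM at 80 mM from 40.8 ± 0.557 (-0.47, adjusted p = 6.25e-05). At 60 mM Mrpl53 fell by 0.57 and Mrps14 by 0.35, and the call of Mrpl53 was lost without replicate 3 of 0 mM (adjusted p = 0.0557) or of 60 mM (adjusted p = 0.0616).

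Mrpl48 fell from 18.6, 16.3 and 16.6 FPKM at 0 mM to 8.09, 7.86 and 6.5 at 60 mM and 14.0, 8.20 and 9.78 at 80 mM (-1.10, adjusted p = 0.000347, and -0.67, adjusted p = 0.00454). Its value is uncertain, because reads can be split with the pseudogene Mrpl48-ps. In the lactate table Mrpl48 stood at 17.2 and Mrpl48-ps at 1.89 FPKM without lactate, while in the cell-state table the ESCs had 5.98 and 9.46. Mrpl48-ps stayed low with lactate, at 1.94 ± 0.671 FPKM at 60 mM and 1.83 ± 0.54 at 80 mM. The 2 entries summed to 19.0 ± 1.25 FPKM at 0 mM, 9.42 ± 1.31 at 60 mM and 12.5 ± 3.35 at 80 mM, so the sum was lower with lactate as Mrpl48 was.

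**Figure D5:**
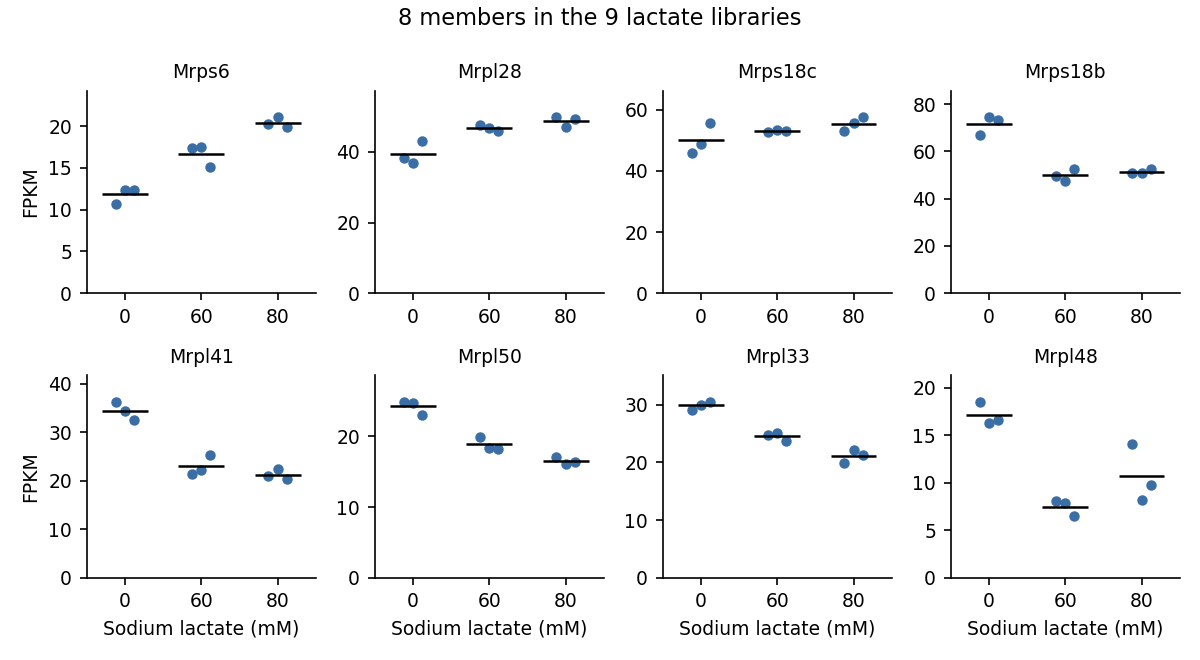
FPKM (y axis, from 0) of 8 members in the 9 lactate libraries by sodium lactate concentration (x axis, mM). Points are libraries and lines are means of 3. Mrps6 is higher at each dose, Mrpl50 and Mrpl33 lower at each dose, and Mrps18b and Mrpl41 are lower at both doses alike.

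Of the anchor proteins of the 2 subunits, Mrpl12 fell from 62.6 ± 3.46 to 52.3 ± 3.08 and 48.1 ± 2.83 FPKM (-0.26 and -0.38) and Mrps5 from 37.5 ± 2.26 to 31.2 ± 0.535 and 28.6 ± 0.208 (-0.26 and -0.38). Mrps12 fell by 0.27 and 0.24, and Mrpl58 by 0.25 and 0.39. Mrps2, Mrps22, Mrps34, Mrpl3 and Mrpl44 were not called at either dose in the main fit. Mrpl44 was called lower at both doses with the median of ratios (limma, adjusted p = 0.0358 and 0.0176) or the replicate block (0.0298 and 0.0258). At 80 mM Mrps22 was called lower with the median of ratios (0.0273) and Mrps34 without 0 mM replicate 1 (0.0188). The falls of Mrpl11, Mrps7 and Mrps16 at 80 mM and Mrps27 at 60 mM each lost their call when some single library was left out. Against the family median 10 members were higher and 14 lower at 60 mM (35.4% and 10.7% of all tested genes), where leaving out any 1 library took the 14 to between 7 and 10, and 15 higher and 18 lower at 80 mM (42.6% and 13.8%).

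Between 80 and 60 mM the members hardly differed. The test called 1 of 82, Mrpl33 (-0.21 ± 0.05, adjusted p = 0.0293), as lower, where 2.11% of all tested genes were lower and 4.06% higher. This call was lost without 60 mM replicate 1 or 2 or 80 mM replicate 1 or 3 (adjusted p from 0.0692 to 0.0926). At an unadjusted p under 0.05 3 members were higher and 8 lower, and 22.4% of all tested genes passed. Mrps6 missed the threshold (0.28, adjusted p = 0.0504), and against the family median it stood higher by 0.29 (adjusted p = 0.0444), where 3.91% of all tested genes did. That call was lost when any library of the 2 doses was left out.

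In the wider pathway genes differed in both directions with sodium lactate. Of all tested genes 18.6% fell and 23.5% rose at 60 mM, and 23.1% fell and 30.0% rose at 80 mM. Of the aminoacyl-tRNA synthetases 9 of 20 fell at 60 mM and 8 at 80 mM, where 1 rose. Of the import genes and chaperones 8 of 16 fell at each dose, with 3 and 5 rising, and Timm50 rose by 0.23 and 0.26. Of the assembly genes 6 of 27 fell and 2 rose at 60 mM, and 9 fell and 4 rose at 80 mM, with Ddx28, an RNA helicase of ribosome assembly, falling by 0.50 and 0.67. The share of assembly genes that fell at 60 mM lies near that of all tested genes. With the median of ratios 9 fell and 1 rose at 60 mM (22.8% and 19.4% of all genes). At 80 mM 10 fell and 3 rose on that scale (29.5% and 24.6%). Among regulators, Myc fell from 29.9 ± 1.87 to 20.8 ± 1.83 and 14.5 ± 0.667 FPKM, and also between 60 and 80 mM (-0.49, adjusted p = 0.00395). Yy1 rose by 0.32 at 80 mM (adjusted p = 6.77e-05). The subunit gene Chchd1 fell from 47.2 ± 1.25 to 32.4 ± 4.56 and 32.2 ± 1.47 FPKM (-0.54 at both doses).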

How the data were processed

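Gene expression was measured by RNA-seq in 21 libraries, 3 for each of 7 groups. The authors deposited FPKM in 2 tables, which were analysed apart. HISAT2 2.0.4, StringTie 2.1.4 and the build mm10 are named in the submitters' processing notes; the annotation and the use of strand are not given in the sources used here. Rows with the same name were summed, which touched no member. FPKM is per length, so levels are compared between genes on that scale only.

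FPKM of at least 1 in 3 or more libraries was required (16358 and 13271 genes). Differences were taken on log2(FPKM + 1), which understates changes of low genes, with limma 3.58.1 in R 4.3.3 (mean trend, all groups of a table in 1 fit, Benjamini-Hochberg adjusted p of 0.05 over all tested genes). The script was tested on simulated data. Called, rose and fell refer to this test. A further fit was made after subtracting from each library the median of its tested members. Alternatives covered the pseudocount, the filter, scaling, the trend, the samples fitted, a minimum change, the replicate block and single libraries left out; equal library sums were added after seeing the data.

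The members, lists and tests were chosen with earlier results of these data known. Members named are those at the highest and lowest level, 17 anchor proteins, and per comparison up to 6 rises and 6 falls of called members with at least 5 FPKM and no overlap, and up to 4 on each side farthest from the family median. Of each pathway list the called gene with the largest rise and fall was eligible. Head-to-head neighbours, genes that share exons, and the factors of the motifs were named outside this rule, after values were seen. Positions are from GENCODE M21 and promoters from RefSeq (GRCm38.p6).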

Additional observations from a re-analysis of the deposited data

How the results depend on the processing

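With median-of-ratios scaling the members' medians became -0.1829 in 2CLCs, -0.2922 in EpiSCs, -0.7006 in MEFs, -0.1617 at 60 mM, -0.1989 at 80 mM and -0.05243 between the doses. With quantile normalization they became -0.4844 in 2CLCs, -0.228 in EpiSCs and -0.8456 in MEFs, and with equal library sums -1.249 in 2CLCs and -0.7767 in MEFs. In 2CLCs the median of ratios reversed Mrpl3 (0.08069), Mrpl48 (0.04993), Mrps15 (0.7547), Mrps18c (0.2751), Mrps28 (0.7208) and Mrps34 (0.3317), and quantile normalization reversed Mrps28 (0.2902). A minimum change of 1 left 31 called members in 2CLCs, 3 in EpiSCs, 39 in MEFs, 1 at 60 mM, 0 at 80 mM and 0 between the doses. With no filter 27 were called at 80 mM. Between 80 and 60 mM the count was 2 with a pseudocount of 5 or equal library sums, 4 with a filter of 5 FPKM or the median of ratios, 3 with quantile normalization, and 0 with no filter, no trend, or only the compared groups (limma; 11 at an unadjusted p under 0.05).

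Centred on the median of all genes, 38 members stood apart at 60 mM, 53 at 80 mM and 4 between the doses, where centring on the members' mean gave 2, and a pseudocount of 0.1 or only the compared groups gave 0. Leaving out single libraries gave 74 to 78 called members in 2CLCs, 43 to 56 in EpiSCs, 66 to 70 in MEFs, 26 to 32 at 60 mM, 29 to 36 at 80 mM and 0 to 1 between the doses. Members apart from the family were then 50 to 54, 35 to 55, 61 to 64, 16 to 20, 27 to 30 and 0 to 0. The cause of these shifts was not tested.

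Replicate numbers gave no sign of pairing, with correlations of same-numbered deviations from -0.06599 to 0.1026 in the cell states and -0.01432 to 0.07173 in lactate. A fit with the replicate block moved no count of called members by over 1.5 times, and of the named members' calls it kept 151, gained 3 and lost 4. Depth is unknown, so no counting error can be given.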
